A study of Homo sapiens with 4 samples.

Results

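The 10 SRSF genes examined here (SRSF1 to SRSF7, SRSF9, SRSF10 and SRSF11) encode the serine- and arginine-rich splicing factors, and they were taken by gene name from the 28391 genes of the deposited table. All 10 were listed and all 10 passed the filter on low values, with 744 to 6196 normalised counts in any library. RNA was sequenced from HCT116, an established cell line of human colorectal carcinoma, in 2 libraries labelled shALKBH5 and genotype ALKBH5 knockdown and 2 libraries labelled shNC and genotype WT. The titles name a short hairpin in both groups, and the comparison asks what changes when ALKBH5, an eraser of N6-methyladenosine (m6A) on RNA, is depleted. The labels name no other allele or agent, do not say which hairpin sequences were used, and leave unsaid if the 2 libraries of each group are from different cultures. The p-values therefore take in the spread among these 4 libraries only, and that spread may be technical.

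ALKBH5 itself had normalised counts of 312 and 270.2 in the shALKBH5 libraries, against 1905 and 1941 in the shNC libraries. Libraries held 16398604 to 17493141 reads assigned to genes. Of 7 colon epithelial markers, 6 (among them EPCAM, KRT8 and CDX2) were read at 50 or more normalised counts in a library, while VIL1 was not. The leukocyte marker CD68 was read at 0 to 2.04 normalised counts in a library (PTPRC and CD3E were not analysed here). Markers of endothelium, hepatocytes and squamous lines summed to at most 8.56 (without APOB), and the fibroblast marker COL1A1 was read at 838 to 910 in every library while DCN reached at most 1.02 (COL1A2 was not analysed here). Mitochondrial reads took 7.26% and 7.57% in the shALKBH5 libraries, against 6.79% and 6.68% in the shNC libraries, and their part in the results was not tested. In bulk RNA, fewer cells that express a gene and less RNA per cell cannot be told apart.

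SR proteins carry RNA recognition motifs, which bind exonic enhancers, and an RS domain of arginine-serine repeats that recruits the U1 and U2 particles to nearby splice sites. The RS domain is phosphorylated by SRPK kinases in the cytoplasm and by CLK kinases in the nucleus, which moves the proteins between cytoplasm, nuclear speckles and sites of transcription. Many SR genes limit their own level by including a poison exon with an early stop codon, so that the transcript is destroyed by nonsense-mediated decay. ALKBH5 is also found in nuclear speckles, and the m6A reader YTHDC1 binds SRSF3 and SRSF10.

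In the main GENCODE release 29 transcript, arginine and serine codons made up 21.3% of codons in SRSF9 and 45.7% in SRSF2, the lowest and highest of the 10, against a median of 13.4% over 19497 human coding transcripts. The longest unbroken run of such codons is printed for 4 members to show how the repeat differs between them, in lower case for serine and in capitals for arginine, on GRCh38 and in the direction of the gene.
SRSF1: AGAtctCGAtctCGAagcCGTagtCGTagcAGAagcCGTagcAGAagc
SRSF2: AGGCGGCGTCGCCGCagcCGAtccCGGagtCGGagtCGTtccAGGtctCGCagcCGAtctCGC
SRSF9: tcaCGGtctCGGtct
SRSF10: AGGAGGAGAtcaAGAagtCGGtct
The SRSF1 run alternates arginine and serine over 16 codons, 8 of each kind. The SRSF2 run of 21 codons opens with a block of arginine codons. The SRSF10 run has 8 codons, of which 5 encode arginine, and that of SRSF9 has only 5 codons in all. SRSF9 is also the one member with no run of 8 or more such codons.

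The summed level of the family differed little between the groups. The 10 genes summed to 32768 and 33790.2 normalised counts in the shALKBH5 libraries, against 32410.4 and 31977 in the shNC libraries. Both shALKBH5 sums lay above both shNC sums, with means of 33279 ± 723 and 32194 ± 307 (SD, n = 2 each), a difference of 3.37%. With the libraries rescaled to equal totals the difference was 1.02% and the groups overlapped, the 10 genes taking 0.192% and 0.198% of all normalised counts in shALKBH5, against 0.195% and 0.191% in shNC. In limma-trend, a moderated linear model on log2(normalised count + 1), over all 25887 genes tested, 1 of the 10 rose (SRSF1), 0 fell and 9 did not pass, where 1.98% of all genes tested rose and 1.88% fell, and 3.86% changed in either direction. Among the 6824 genes that averaged 500 or more normalised counts, 6.04% rose and 5.42% fell, 11.5% in all. A gene passed at a Benjamini-Hochberg adjusted p under 0.05. The count tool edgeR, run on whole reads recovered from the table, passed 2 of the 10, SRSF1 and SRSF10, both higher, where 10.4% of its genes were higher and 10.4% lower. The median log2 fold change of the 10 was 0.07, against -0.00 over all genes tested and 0.02 over those 6824. In 6 of the 10 both shALKBH5 libraries lay above both shNC libraries, and in 2 below (SRSF2 and SRSF3), where 25% and 25.6% of all genes tested did so, and 37.8% and 31.4% of those averaging 500 or more.

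**Figure D1:**
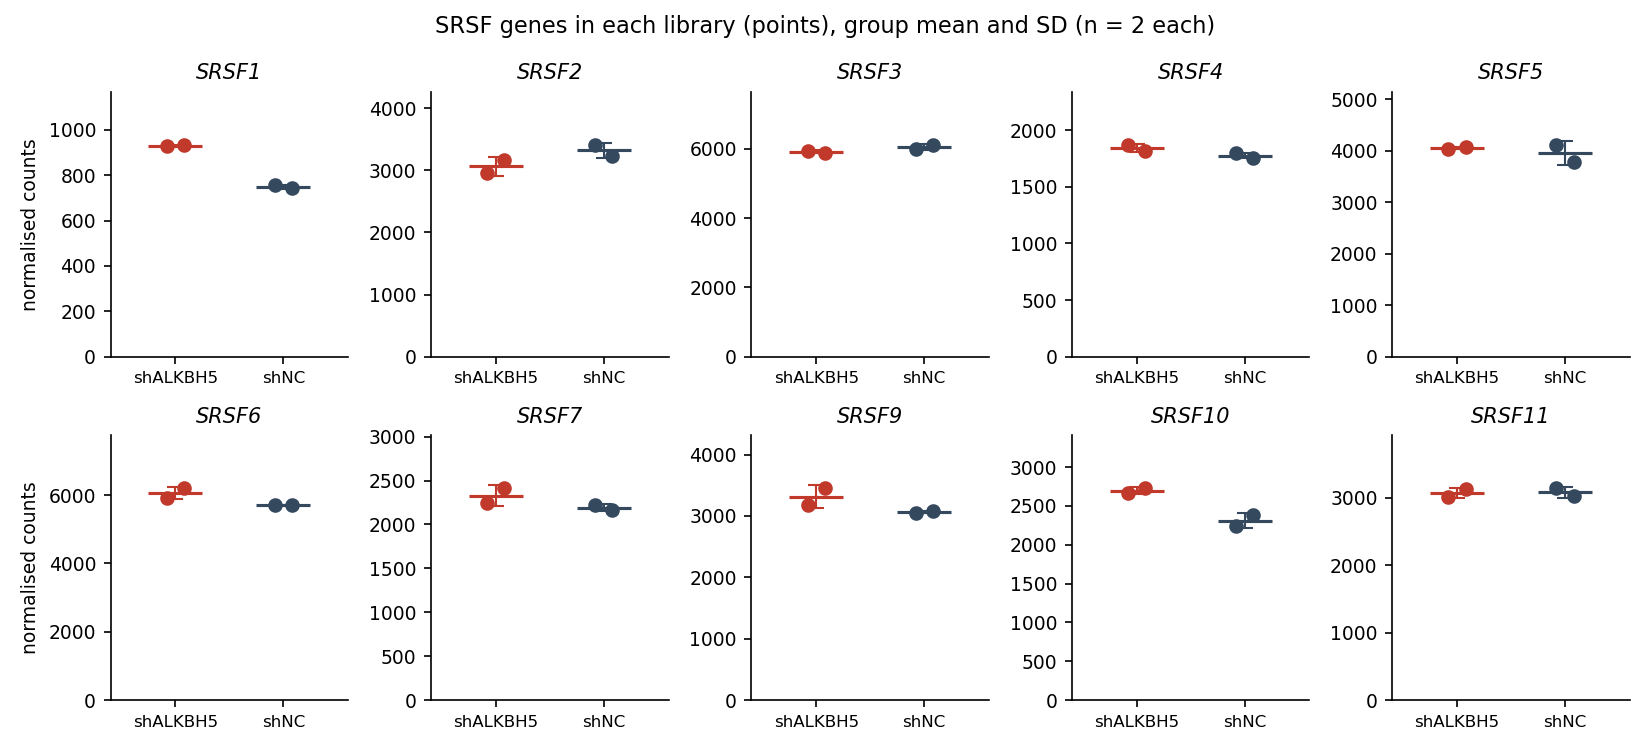
Normalised counts of the 10 SRSF genes in each library (vertical axes, each from 0), with points for libraries, horizontal lines for group means and bars for the SD (n = 2 each), shALKBH5 left of shNC. SRSF1 had the highest fold change of the 10, with 927 and 934 in shALKBH5 against 756 and 744 in shNC, and the SRSF11 points overlap.

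SRSF1 and SRSF9 are closely related members, each with a second, degenerate RNA recognition motif. SRSF1, the founding member of the family and a proto-oncogene, is at 58003360 to 58007346 on the minus strand of chromosome 17 (ENSG00000136450, GRCh38). It had 927 and 934 normalised counts in the shALKBH5 libraries, against 756 and 744 in the shNC libraries. The groups did not overlap, and libraries within a group differed by far less than the groups. The means were 930.5 ± 4.68 and 750.0 ± 8.75 (SD, n = 2 each), a log2 fold change of 0.31 ± 0.0497 (SE) or 24.1%, with a limma-trend adjusted p of 0.0403. The call was lost without shNC library 1 (adjusted p 0.275) or shNC library 2 (0.242), where limma-trend passed 0 genes of all, while edgeR gave 0.00261 and 0.00536 on the same libraries. DESeq2 lost the call whichever library was left out, with adjusted p from 0.314 to 0.473. The authors' deposited table gives SRSF1 an adjusted p of 0.0344.

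The exons of SRSF1 are shared with other annotated genes. A read-through gene on the same strand, AC015813.2, has exons over all of the coding bases of the main SRSF1 transcript (100%) and over 88.5% of that transcript. AC015813.2 itself had normalised counts of 0 and 2.002 in the shALKBH5 libraries and 3.80 and 3.07 in the shNC libraries. Of the 3340 exon bases annotated to SRSF1, 1450 carry no other exon of that strand, and 88% of those lie outside the main transcript. The longest free stretch, chr17:58004002-58004922, has 921 bases, of which 74 belong to the main transcript and 0 to its coding part. How the counting treated strand, or reads that fit more than 1 gene, is unknown here, and whether the rise holds for the coding mRNA was not tested. On the opposite strand AC015813.5 covers 13.2% of the SRSF1 exon bases, and its log2 fold change was -0.63 (limma-trend adjusted p 0.399).

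SRSF9 (ENSG00000111786, chr12:120461668-120469793, minus strand), which works much like SRSF1 on many enhancers, had 3183 and 3449 normalised counts in the shALKBH5 libraries, against 3048 and 3077 in the shNC libraries. Both shALKBH5 libraries were higher, but they lay further apart from each other than the nearer of them lay from shNC. The means were 3316 ± 188 and 3063 ± 20.4 (SD, n = 2 each), and the log2 fold change of 0.11 ± 0.0486 did not pass (limma-trend adjusted p 0.258, 95% interval -0.01 to 0.24). Exons of GATC on the opposite strand cover 46.2% of the SRSF9 exon bases. GATC, a subunit of the mitochondrial amidotransferase, was higher in shALKBH5 by 0.28 on the log2 scale, without overlap. It did not pass in limma-trend (adjusted p 0.185) and passed narrowly in edgeR (0.0466).

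SRSF10 differs from the other members in that it represses splicing when it is dephosphorylated, in mitosis and after heat shock. It lies at 23964804 to 23980927 on the minus strand of chromosome 1 (ENSG00000188529). It had 2662 and 2725 normalised counts in the shALKBH5 libraries, against 2244 and 2379.5 in the shNC libraries. The groups did not overlap, and the gap between them was wider than that within either. The means were 2694 ± 44.8 and 2312 ± 96.0 (SD, n = 2 each), a log2 fold change of 0.22 ± 0.0449 or 16.5%. That missed the threshold in limma-trend (adjusted p 0.0649, 95% interval 0.11 to 0.33) and passed in edgeR (adjusted p 0.00255), in limma-voom (0.00281) and in the authors' deposited table (0.0128). SRSF10 passed in only 13 of the 25 settings run besides the main fit. With 1 library left out, the lone library of its group is assumed to vary like the other group, and the limma-trend adjusted p then ranged from 0.014 to 0.281.

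SRSF3 and SRSF7 are close relatives that also hand spliced mRNA to the export receptor NXF1. SRSF3 (ENSG00000112081, chr6:36594353-36605600, plus strand), the smallest member with 164 codons, had 5951 and 5889.9 normalised counts in the shALKBH5 libraries, against 5990.3 and 6114 in the shNC libraries. Both shALKBH5 libraries were lower than both shNC libraries, by a narrow margin. Its means were 5920.5 ± 43.2 and 6052 ± 87.3, with a log2 fold change of -0.03 ± 0.0312 (adjusted p 0.626 in limma-trend, 95% interval -0.11 to 0.05). SRSF7 (ENSG00000115875, chr2:38743599-38751494, minus strand), which adds a zinc knuckle to its recognition motif, had 2240.4 and 2410.0 in shALKBH5, against 2217 and 2168 in shNC. The lower shALKBH5 library was close to the higher shNC one, and the log2 fold change was 0.08 ± 0.0493 (limma-trend adjusted p 0.390).

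SRSF2 (ENSG00000161547, chr17:76734115-76737374, minus strand), also known as SC35, had 2961 and 3175 normalised counts in the shALKBH5 libraries, against 3409.9 and 3236 in the shNC libraries. Both shALKBH5 libraries were lower, and the fold change was the lowest of the 10. The means were 3068 ± 151 and 3323 ± 123 (SD, n = 2 each), and the log2 fold change of -0.12 ± 0.0507 did not pass (limma-trend adjusted p 0.266, 95% interval -0.24 to 0.01). In edgeR the adjusted p was 0.0852 with all libraries and 0.0159 without shNC library 2. Exons of MFSD11 on the opposite strand lie over 96.1% of the SRSF2 coding bases, and MFSD11, a membrane transporter-like protein, differed by -0.12 on the log2 scale (limma-trend adjusted p 0.565).

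SRSF8, an SR gene outside the 10 that arose as a retrocopy of SRSF2, had 833 and 845 normalised counts in the shALKBH5 libraries, against 692 and 680.4 in the shNC libraries. The groups were well apart, and the rise of 0.29 ± 0.0518 on the log2 scale passed narrowly (limma-trend adjusted p 0.0498), although it stands at 0.0718 in the authors' deposited table. In limma-trend the call was lost without shNC library 1 (adjusted p 0.277), without shNC library 2 (0.246) and without shALKBH5 library 2 (0.0526), and also with a pseudocount of 0.5 (0.0541) or no filter on low values (0.0584). It held in 12 of the 25 settings run besides the main fit. The difference in response between SRSF8 and SRSF2 was not tested. No stretch of 50 bases in the main SRSF2 transcript occurs in an SRSF8 transcript of GENCODE. SRSF12 was not analysed here.

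SRSF4, SRSF5 and SRSF6 are a further subgroup, which also have a second, degenerate recognition motif. SRSF4 (ENSG00000116350, chr1:29147743-29181987, minus strand), the largest at 494 codons, had 1868 and 1818 normalised counts in the shALKBH5 libraries, against 1793 and 1757 in the shNC libraries, with a log2 fold change of 0.05 ± 0.0413 (adjusted p 0.516 in limma-trend). Its shALKBH5 libraries were the higher ones, without overlap. SRSF5 (ENSG00000100650, chr14:69726900-69772005, plus strand), which responds to insulin and growth signals, had 4034 and 4069 in shALKBH5, against 4109.9 and 3780.2 in shNC. Its shALKBH5 libraries fell between the shNC ones, so the groups overlapped, and the log2 fold change was 0.04 ± 0.0486 (limma-trend adjusted p 0.710). SRSF6 (ENSG00000124193, chr20:43457928-43464247, plus strand) had 5929.7 and 6196 in shALKBH5, against 5706 and 5697 in shNC. Both of its shALKBH5 libraries were higher, with a log2 fold change of 0.09 ± 0.0353 that did not pass (limma-trend adjusted p 0.234, 95% interval -9.39e-05 to 0.18). Of the 50-base stretches of its main transcript, 6.41% also occur in AC005822.1, which had at most 81.1 normalised counts in a library.

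SRSF11 (ENSG00000116754, chr1:70205682-70253052, plus strand), a more distant member that binds the large subunit of U2AF, had 3011 and 3125 normalised counts in the shALKBH5 libraries, against 3136 and 3024 in the shNC libraries. The groups overlapped, and the log2 fold change was -0.01 ± 0.0406 (limma-trend adjusted p 0.964, 95% interval -0.11 to 0.10).

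**Figure D2:**
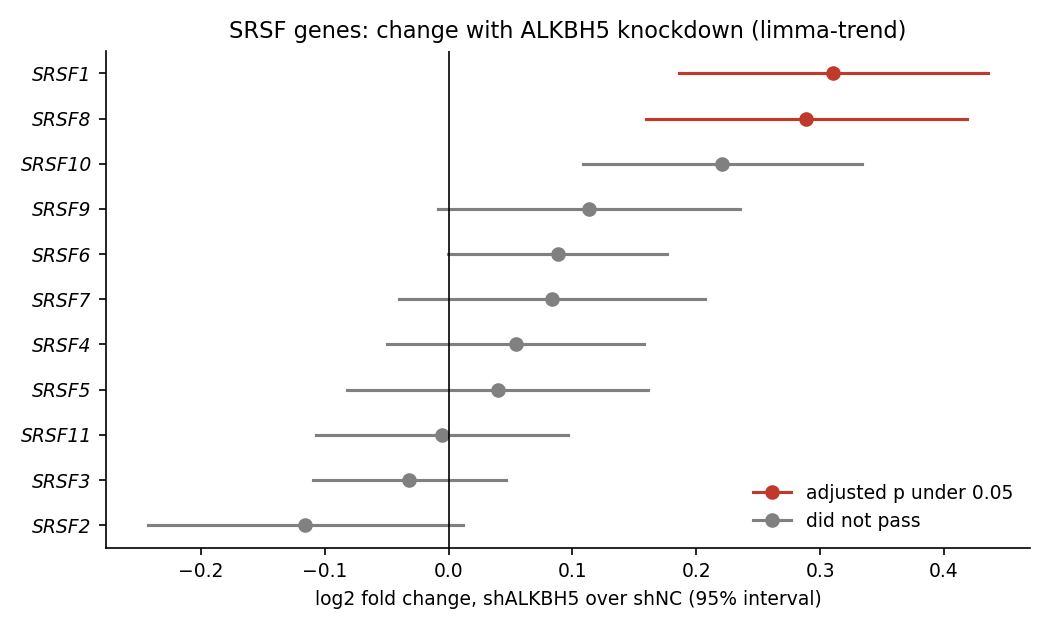
Log2 fold change of shALKBH5 over shNC (horizontal axis) with its 95% interval from limma-trend for the 10 SRSF genes and SRSF8 (vertical axis). SRSF1 at 0.31 and SRSF8 at 0.29 passed an adjusted p of 0.05 (red), SRSF10 at 0.22 did not, and SRSF2 lies lowest at -0.12.

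Within the 10-gene pool, the largest shifts in share were in SRSF2, SRSF3 and SRSF10. SRSF1 supplied 2.83% and 2.76% of the 10-gene sum in the shALKBH5 libraries, against 2.33% and 2.33% in the shNC libraries. SRSF10 supplied 8.12% and 8.07% in shALKBH5, against 6.92% and 7.44% in shNC. SRSF2 gave 9.04% and 9.40% in shALKBH5, against 10.5% and 10.1% in shNC. Shares of SRSF3 were 18.2% and 17.4% in shALKBH5, against 18.5% and 19.1% in shNC, and SRSF3 and SRSF6 were the largest contributors in each library. These shares sum reads without regard to gene length and were not tested. They also take the counts of SRSF1, SRSF2 and SRSF9 as given, although exons of other genes overlap theirs.

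Levels between genes were set per kilobase of the annotated exon length that the table gives. Averaged over the 4 libraries, SRSF6 stood first with 1281 normalised counts per kilobase and SRSF2 second with 1059. SRSF9 at 852 and SRSF3 at 841 came next and overlapped in range, then SRSF5 at 746, SRSF7 at 558 and SRSF11 at 363. At the low end, SRSF1 at 252 and SRSF10 at 243.5 overlapped as well (SRSF1 covering 223 to 280 and SRSF10 218 to 265), and SRSF4 was last at 203. Neighbours other than those 2 pairs did not overlap. The order depended on the length used: per kilobase of the main coding transcript, SRSF9 came first with 2656, SRSF10 second with 1534 and SRSF1 last with 555. On that scale SRSF10 (1376 to 1671) overlapped SRSF3 (1395 to 1448), SRSF5 (1343 to 1460) and SRSF6 (1317 to 1433), so their levels did not separate. The table's gene length for SRSF10 is 10277 bases, while its main transcript has 1631. Exons of other genes lie over 88.5% of the main SRSF1 transcript on the same strand. On either strand they lie over 33.8% of that of SRSF2 and 41.2% of that of SRSF9. How reads there were counted is unknown, so the ranks of these genes are uncertain.

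The counts pool productive and unproductive transcripts of each gene. GENCODE release 29 lists 107 transcripts of the 10 genes, of which 39 are coding, 22 are marked for nonsense-mediated decay and 28 retain an intron, and each of the 10 has at least 1 transcript marked for decay. In 6 of the 10 an early stop lies in an exon that does not touch the main transcript, as in a poison exon. The stop, in capitals with 12 bases on each side, is printed for 4 of these because the gene length given in the table takes in such exons.
SRSF3: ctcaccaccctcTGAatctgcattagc
SRSF6: gccttttgccatTAGacgcagggtgat
SRSF7: aatttgagacggTGAtcgccgtaacag
SRSF9: tcagaaaactatTAGgaaatggctgca
The SRSF3 exon is chr6:36599821-36600276 on the plus strand, 456 bases long, and ends the reading frame after 124 codons. The SRSF6 exon is chr20:43459153-43459420 on the plus strand, with 268 bases and a stop after 135 codons. That of SRSF7 is chr2:38748898-38749173 on the minus strand, with 276 bases and a stop after 51 codons. The SRSF9 exon, chr12:120464733-120464822 on the minus strand, has 90 bases and stops the frame after 119 codons. The table holds no exon or junction counts, so inclusion of these exons was not measured.

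The m6A writer prefers a motif of which GGACT is the commonest form, and m6A is densest near stop codons. That motif, searched on the transcript strand, was present in all 10 main SRSF transcripts, at 0.231 per kilobase in SRSF6 and 3.33 in SRSF9 at the extremes. In the window of 200 bases on each side of the stop codon it was found in 2 of the 10, SRSF7 and SRSF10, against 37.3% of 15916 human coding transcripts with such a window. The sites are printed with the motif in capitals.
SRSF7: ctgaaagaatGGACTgaagctctca
SRSF10: tcaaggtcttGGACTagtcctaagt
The last letter of the SRSF7 copy is the first base of its stop codon, and the SRSF10 copy begins 26 bases before the stop. Methylation was not measured, so these letters say nothing on whether the transcripts carry m6A.

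Among the kinases that phosphorylate SR proteins, 3 of 8 fell (CLK1, CLK4 and PRPF4B), 0 rose and 5 did not pass, with a list median of -0.14 on the log2 scale against -0.00 over all genes tested. Of all genes tested 1.88% fell, and 5.42% of those averaging 500 or more normalised counts. This list, like the others, was chosen with earlier results of these data known, so its count is no independent test. CLK1, a nuclear kinase of the RS domain, had 634 and 594 normalised counts in the shALKBH5 libraries, against 1215 and 1067 in the shNC libraries. Both shALKBH5 libraries were far below both shNC libraries, with a gap wider than the spread within either group. Its means were 614 ± 28.2 and 1141 ± 105 (SD, n = 2 each), a log2 difference of -0.89 ± 0.0801 (limma-trend adjusted p 0.0109). CLK4, its closest paralogue, had 141 and 151 in shALKBH5, against 246 and 228 in shNC, a log2 fold change of -0.70 ± 0.106 (adjusted p 0.0361 in limma-trend). PRPF4B, a kinase of the tri-snRNP, had 1447 and 1543 in shALKBH5, against 1877 and 1841 in shNC, a log2 fold change of -0.31 ± 0.0491 (adjusted p 0.0386 in limma-trend). All 3 calls were also made by edgeR and DESeq2. In limma-trend all 3 were lost without shNC library 1 or shNC library 2 (adjusted p 0.224 to 0.278), and in DESeq2 CLK1 passed whichever library was left out while PRPF4B did not. CLK4 did not pass in DESeq2 without a shALKBH5 library and received no adjusted p there without a shNC library.

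The other 5 kinases did not pass. SRPK1, the main cytoplasmic kinase of SRSF1, had 2009 and 1979 normalised counts in the shALKBH5 libraries, against 1859 and 1866 in the shNC libraries, with a log2 fold change of 0.10 ± 0.0385 that did not pass (limma-trend adjusted p 0.225). SRPK2 had a log2 fold change of -0.16 and CLK3 of -0.12, both without passing. CLK2 at -0.00 and DYRK1A at -0.02 were closest to 0. The difference in response between CLK1 and CLK2 was not tested.

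**Figure D3:**
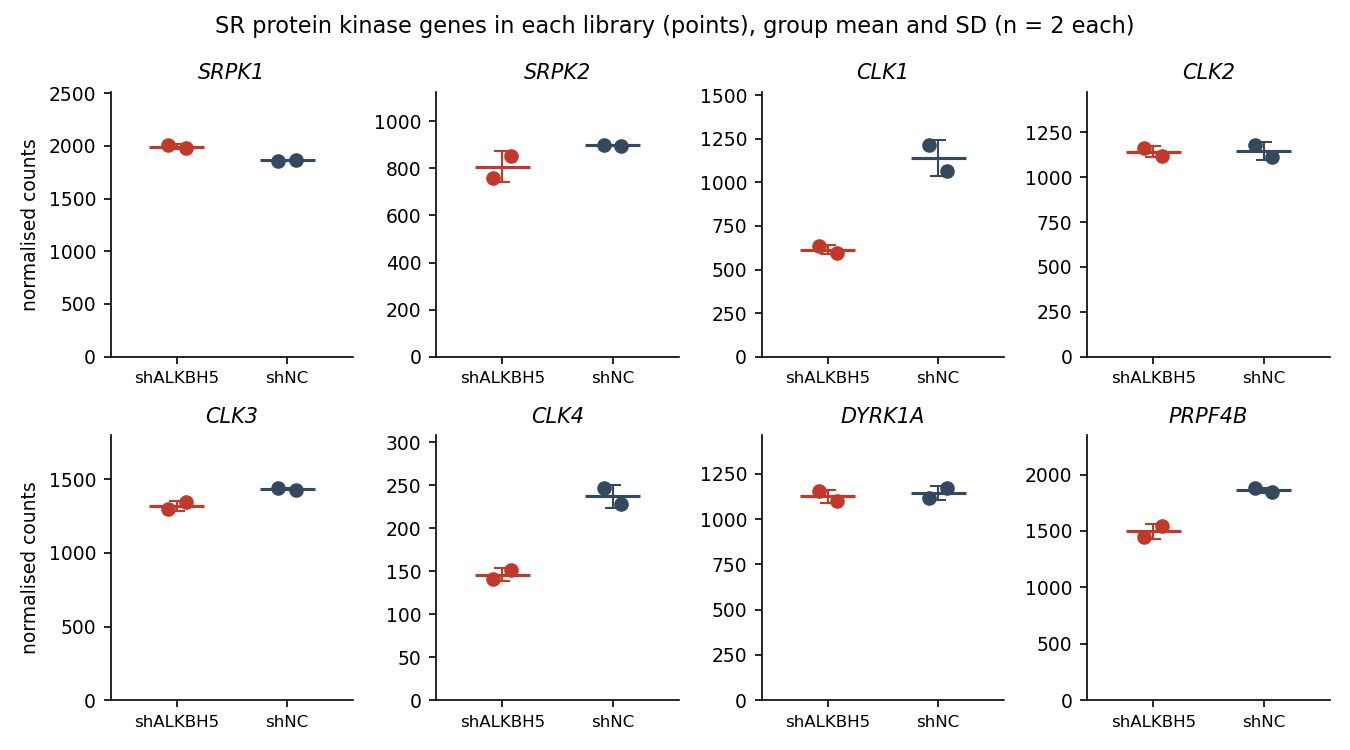
Normalised counts of the 8 SR protein kinase genes in each library (vertical axes, each from 0), with points for libraries, horizontal lines for group means and bars for the SD (n = 2 each), shALKBH5 left of shNC. CLK1 at 634 and 594 against 1215 and 1067, CLK4 and PRPF4B are lower in shALKBH5, while CLK2 and DYRK1A overlap.

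Of 5 genes for phosphatases of SR proteins and their regulators, 1 rose, 0 fell and 4 did not pass, against 1.98% of all genes that rose and 6.04% of those averaging 500 or more. None of the 4 phosphatase genes passed (in edgeR 0 as well, and 0 at an unadjusted p under 0.05). The rise was in PPP1R8, a nuclear inhibitor of protein phosphatase 1, with 1196 and 1244 normalised counts in the shALKBH5 libraries, against 976 and 899 in the shNC libraries (log2 fold change 0.38 ± 0.0601, limma-trend adjusted p 0.0393). Both shALKBH5 libraries were above both shNC libraries. Without shNC library 1 or shNC library 2, limma-trend passed 0 genes of all, so this call and those of the lists that follow were lost there. In DESeq2 the PPP1R8 call held without shNC library 1 (adjusted p 0.0419) and was lost without any other library (0.147 to 0.272).

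Of 32 other SR-related splicing and speckle genes, 3 fell (RSRC2, RSRP1 and RBM25), 0 rose and 29 did not pass, with a list median of 0.01. That is 9.38% called, near the 11.5% of genes averaging 500 or more normalised counts. RSRC2, an arginine- and serine-rich coiled-coil protein, had 1032 and 1018 normalised counts in the shALKBH5 libraries, against 1431 and 1327 in the shNC libraries (log2 fold change -0.43 ± 0.0550, limma-trend adjusted p 0.0252). RSRP1, another arginine- and serine-rich protein, had 774 and 775 in shALKBH5, against 1061 and 1014 in shNC (-0.42 ± 0.0520, limma-trend adjusted p 0.0231). RBM25, which binds exonic enhancers and the U1 particle, had a log2 fold change of -0.25 (adjusted p 0.0400 in limma-trend). In these genes, too, both shALKBH5 libraries lay below both shNC libraries. In edgeR the split was 5 higher and 6 lower, where 10.4% of all its genes went each way. With a library left out, DESeq2 lost RBM25 (adjusted p 0.0948 to 0.297) and RSRP1 (0.05 to 0.179) in all 4 fits, and RSRC2 passed only without shNC library 2 (0.00935). TRA2B, a splicing activator with RS domains on both sides of its recognition motif, had 2983 and 2938 in shALKBH5, against 2672 and 2678 in shNC. Its log2 fold change of 0.15 did not pass in limma-trend (adjusted p 0.0910) or DESeq2 (0.107), but passed in edgeR (0.0258).

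Import, export and decay factors showed no call in limma-trend. Of all genes tested, 21.4% had an unadjusted p under 0.05, and edgeR called 20.8% of its genes. Of 12 import and mRNA export genes, 0 rose or fell (2 had an unadjusted p under 0.05, and edgeR gave 1 higher and 0 lower), and TNPO3, the importin of SR proteins, had a log2 fold change of -0.03. Of 15 genes of nonsense-mediated decay and the exon junction complex, 0 rose or fell (4 had an unadjusted p under 0.05, and edgeR gave 1 higher and 2 lower). UPF1, the helicase at the centre of decay, had a log2 fold change of 0.09 (adjusted p 0.266 in limma-trend). Of 11 hnRNP genes, whose products often oppose SR proteins, 1 rose and 1 fell, 18.2% against 11.5% of genes averaging 500 or more normalised counts. Both were called in DESeq2 whichever library was left out. HNRNPU, a nuclear matrix protein, had 14246 and 14071 normalised counts in the shALKBH5 libraries, against 11545 and 11999.7 in the shNC libraries (0.27 ± 0.0317, limma-trend adjusted p 0.0217). HNRNPD, which binds AU-rich elements, had 5541 and 5149 in shALKBH5, against 7142 and 7216 in shNC (-0.43 ± 0.0436, limma-trend adjusted p 0.0158). The edgeR split of the 11 hnRNP genes was 3 higher and 1 lower, where 10.4% of all its genes went each way.

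Of 6 m6A genes that bear on SR proteins, ALKBH5, the target of the knockdown, fell and the other 5 did not pass. The shares that fell were 1.88% of all genes tested and 5.42% of those averaging 500 or more normalised counts. YTHDC1 had 1362 and 1276 normalised counts in the shALKBH5 libraries, against 1233 and 1207 in the shNC libraries, with a log2 fold change of 0.11 (adjusted p 0.286 in limma-trend). Both shALKBH5 libraries were slightly above both shNC libraries.

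**Figure D4:**
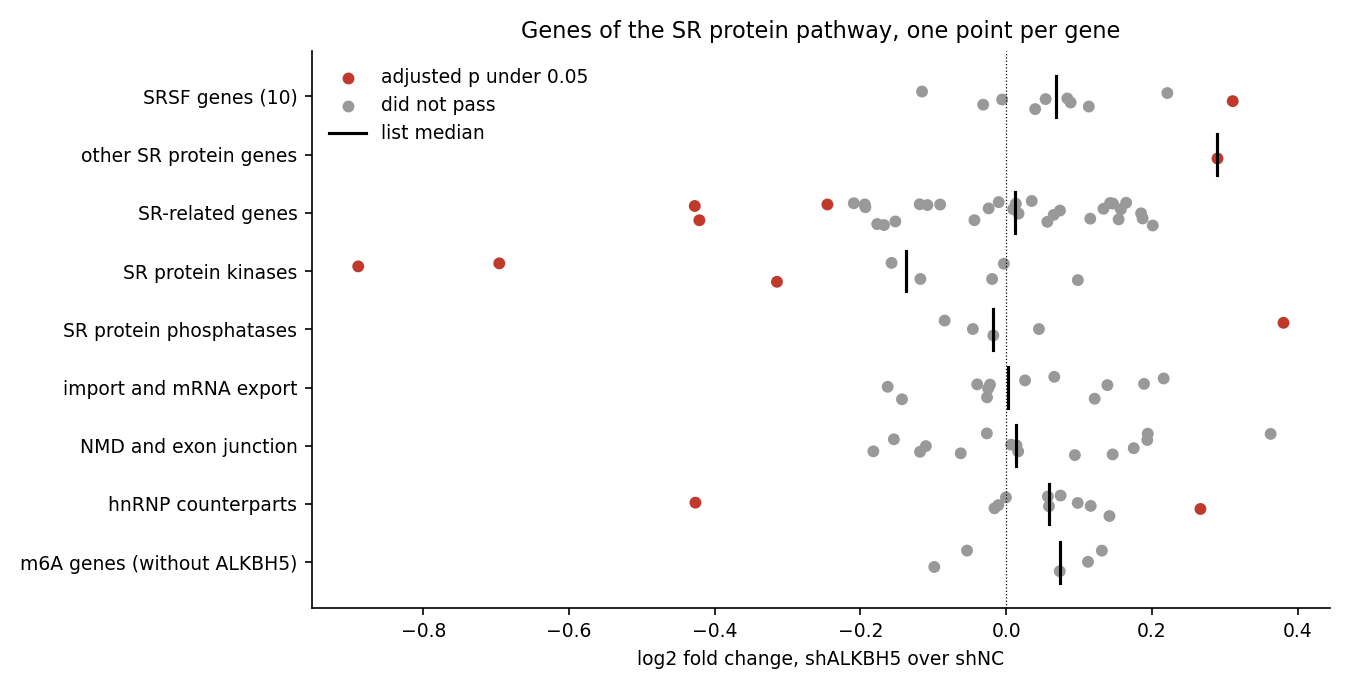
Log2 fold change of shALKBH5 over shNC (horizontal axis) for each gene of the SR protein pathway lists (rows), red where the limma-trend adjusted p was under 0.05, with a vertical bar at each list median and ALKBH5 left out of the last row. The kinases reach furthest down, to -0.89 in CLK1, while the 10 SRSF genes lie between -0.12 and 0.31.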

How the data were processed

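RNA-seq libraries came from HCT116 cells with an mRNA kit (labels' protocols), 2 per group. The deposited table holds, per gene and library, a signal value: by its values, the authors' read counts divided by a size factor per library, called normalised counts here, since every value came out as whole reads (100% in each library, within 0.001 reads). The aligner, the counting program, its strand setting and its handling of ambiguous reads are not given in the labels or the file headers used here. The authors' deposited table also gives log2 fold changes, p-values and adjusted p-values, which call 793 genes higher and 691 lower (5.23% of 28391). In DESeq2 on the recovered reads, only 12428 genes received an adjusted p, and 11.9% of those passed. Gene coordinates matched GENCODE release 29 on GRCh38 for 99.9% of genes, and sequences were taken from that release.

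The main test was limma-trend 3.58.1 (R 4.3.3) on log2(normalised count + 1), for genes with at least 1 in at least 2 libraries, with Benjamini-Hochberg adjustment over all 25887 genes and a threshold of 0.05. Standard errors, 95% intervals and adjusted p come from that fit unless another tool is named. edgeR 4.0.16 and DESeq2 1.42.0 on the recovered reads, and other filters, scalings and left-out libraries, were alternatives. The steps were also run on simulated data whose spread between libraries was assumed. That check cannot show how many calls here are false. Replicates differed by more than sampling noise (chi-square per gene 2.28 in shALKBH5 and 3.00 in shNC).

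The members and the gene lists were chosen with earlier results of these data known. Named were all 10 members, genes overlapping them, list genes past the threshold (up to 6 a list), SRPK1, CLK1, TRA2B, TNPO3, YTHDC1 and UPF1, and the 4 other kinases, which were added after their values were seen.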

Additional observations from a re-analysis of the deposited data

How the results depend on the processing

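Over all genes, 1000 of the 25887 tested passed as reported. The count was 3487 of 12540 for genes with a mean of at least 50. With equal totals it was 2059 of 24995 (38.2% of them higher, against 51.3% as reported). edgeR passed 3428 of 16473, and 1697 of 28391 without its expression filter. DESeq2 passed 1484 of the 12428 genes with an adjusted p, and limma-voom 3393 of 16473. In limma without the trend it was 0 of 25887 (3903 at an unadjusted p under 0.05). Of the 10 SRSF genes, 1 passed as reported, 2 (SRSF1 and SRSF10) with a mean of at least 50, equal totals, edgeR with or without its filter, DESeq2 or limma-voom, and 0 without the trend. Of the 8 kinase genes, 3 passed as reported and 0 without the trend. The summed SRSF difference of 3.37% was 1.02% with equal totals.

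Leaving out a library gave 0 to 2281 genes in limma-trend, 1967, 2228, 3016 or 3433 in edgeR and 338, 371, 470 or 593 in DESeq2. It gave 0 to 2 SRSF genes in limma-trend, 2 to 3 in edgeR and 0 in DESeq2, 0 to 3 kinases, and a summed SRSF difference of 1.78% to 4.96%. In limma-trend both counts of 0 came from leaving out shNC library 1 or 2, with 3859 and 4201 genes at an unadjusted p under 0.05. The causes were not tested.

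The deviations of same-numbered libraries correlated at -0.0275 over 12540 genes. That value alone cannot show whether same-numbered libraries were paired, and the main fit did not pair them. With the replicate block, limma-trend passed 111 genes, 0 SRSF genes and 1 kinase (CLK1), and edgeR passed 3273 genes, 2 SRSF genes and 3 kinases. The edgeR and DESeq2 fits without a library, and edgeR with the block, were chosen after seeing the data.

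Over the 25 settings run besides the main fit, the log2 fold change of SRSF1 lay between 0.28 and 0.33, and it passed in 17. That of SRSF10 lay between 0.18 and 0.26, and SRSF10 passed in 13. SRSF2 passed in 1, and SRSF3, SRSF4, SRSF5, SRSF6, SRSF7, SRSF9 and SRSF11 in 0. The sign changed between settings in SRSF5 (-0.02 to 0.10), SRSF11 (-0.04 to 0.02) and TNPO3 (-0.08 to 0.02). A p that misses the threshold does not show that a gene did not differ. In fits without a library, the lone library of a group is assumed to vary like the other group.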

Other observations

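U2AF1, the small U2AF subunit that meets SR proteins at the 3′ splice site, had 279 and 106 normalised counts in the shALKBH5 libraries and 267 and 87.9 in the shNC libraries. Its near-identical copy U2AF1L5 had 140 and 126 in the shALKBH5 libraries and 178 and 575 in the shNC libraries. Libraries numbered 1 were higher in U2AF1 in both groups. How reads shared by the copies were counted is not known here, so both levels are uncertain. U2AF1 is 1 of the 32 SR-related genes and counts among the 29 that did not pass.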
